A study of Mus musculus with 9 samples.

Results

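Interferon-stimulated genes are the genes that cells switch on when they sense an interferon, and a list of 35 such genes was followed through RNA-seq of 9 mouse libraries. The members were the genes of the expression table whose symbol was on the list, a rule that uses no measured value, although the list was drawn up with earlier results of these libraries known. Of the 35 genes 32 had a value among the 19240 genes of the table, and Oas1b, Mx1 and Mx2 are not analysed here. An average of 0.5 FPKM or more (fragments per gene, divided by transcript length and by the mapped fragments of the library) was reached by 29 of them, which were tested, whereas Oas3, Oasl1 and Rsad2 fell under this limit and are given as values.

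Type I interferons are secreted by infected or stressed cells and bind a receptor on the cell surface, whose JAK kinases phosphorylate STAT proteins. Phosphorylated STAT2 takes part with IRF9 in a complex that binds interferon-stimulated response elements (ISREs) and starts transcription. Fibroblasts respond in this way, and low amounts of interferon keep many of these genes expressed at a basal level without infection.

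The study asked how the transcriptome differs when 1 residue of S100A8, a calcium-binding protein of myeloid cells, is mutated. The labels give an overexpression control (OEA8_Ctrl), cells expressing S100A8 with a point mutation at residue 67 (OEA8_67) and cells with a point mutation at residue 69 (OEA8_69), with 3 libraries each. Whether OEA8_Ctrl carried the unmutated protein or only a vector is not stated there, and the study's text describes its reference as overexpressing the protein. The study's methods describe delivery by lentivirus with puromycin selection and state that its mice were female. The labels give no age, sex or separate cultures for these libraries, so the p-values rest on a spread among libraries that could be technical.

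The labels name hematopoietic stem cells and the study's text names mouse embryonic fibroblasts. Of 12 fibroblast markers 12 reached an average of 1 FPKM (median 207 FPKM), and of 12 hematopoietic stem and progenitor markers 7 did. Ptprc (CD45), taken as a myeloid marker, and Kit, by whose product the study's methods select hematopoietic stem cells, did not exceed 0.03 FPKM in any library. S100a8 lay between 3.75 and 6.24 FPKM, with overlapping groups, and S100a9 was listed at 0 except for 0.11 FPKM in OEA8_Ctrl replicate 2. The FPKM of a library summed to 469909 to 501342, with 15800 to 16179 genes above 0. The read depth behind the values is unknown, and in such bulk samples fewer responding cells and less RNA per cell cannot be told apart.

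Promoter sequences of this group of genes are shown first. RefSeq windows from 250 bases before to 50 bases after the transcription start (GRCm38.p6) matched 25 of the 35 genes. The ISRE core was searched on both strands as GAAANNGAAA, overlapping matches included, and these letters were in the windows of 12 of the 25 genes (48.0%), against 3.99% of the 27025 genes with such windows in RefSeq. The gamma-activated site (GAS), searched as TTCNNNGAA, was in 6 of the 25 (24.0%), against 9.55% of all genes with windows. The stretches below are those of the genes with 2 or more ISRE matches, all before the transcription start. Zbp1, Ifi27 and Oas2, which are called in the results, were not among the genes with windows. They run 5′ to 3′ on the strand of the gene, with every ISRE match in capitals, and none of their bases lies in an exon annotated by GENCODE. By the RefSeq gene positions, however, the stretches of Ifit3 and Ifit3b lie inside their genes, and that of Oas1a lies partly inside.
Isg15: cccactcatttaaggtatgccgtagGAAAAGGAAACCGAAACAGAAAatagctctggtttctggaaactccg
Bst2: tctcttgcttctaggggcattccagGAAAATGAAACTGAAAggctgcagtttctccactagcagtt
Oas1a: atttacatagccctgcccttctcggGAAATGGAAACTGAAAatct
Ifit1: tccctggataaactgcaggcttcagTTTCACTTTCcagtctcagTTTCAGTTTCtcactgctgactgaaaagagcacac
Ifit3: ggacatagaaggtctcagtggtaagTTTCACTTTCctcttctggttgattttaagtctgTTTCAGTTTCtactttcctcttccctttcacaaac
Ifit3b: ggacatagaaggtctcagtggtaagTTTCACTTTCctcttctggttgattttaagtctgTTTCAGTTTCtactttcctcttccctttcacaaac

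The Isg15 stretch (chr4:156200850-156200921, minus strand) held 3 overlapping matches, and those of Bst2 (chr8:71537562-71537627, minus strand) and Oas1a (chr5:120907526-120907570, minus strand) held 2 each. In Ifit1 (chr19:34640760-34640838, plus strand) the 2 matches were separate and read on the opposite strand. Ifit3 (chr19:34583348-34583441, plus strand) and Ifit3b (chr19:34607744-34607837, plus strand) had the same 94 bases. The other genes with the letters were Ddx58, Eif2ak2, Ifih1, Oas3, Rsad2 and Stat2. A match describes letters only. Cmpk2, Dtx3l, Herc6, Ifi35, Ifi44, Ifit2, Irf7, Irf9, Isg20, Oasl1, Oasl2, Trim25 and Xaf1 had windows without these letters.

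The listed genes were expressed in all groups, and their levels moved together from library to library, within groups as well as between them. Mean FPKM over the 9 libraries ranged from 0.252 for Oasl1 to 246 for Bst2, and 20 of 32 genes averaged at least 10 FPKM. In OEA8_Ctrl the 32 genes with a value summed to 1002, 1234 and 1023 FPKM in replicates 1, 2 and 3. In OEA8_67 the sums were 995, 610.4 and 533 FPKM, and in OEA8_69 they were 419.6, 689 and 882 FPKM. Replicate 1 of OEA8_67 therefore stood at 91.6% of the OEA8_Ctrl mean, whereas replicate 1 of OEA8_69 stood at 38.6%.

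**Figure D1:**
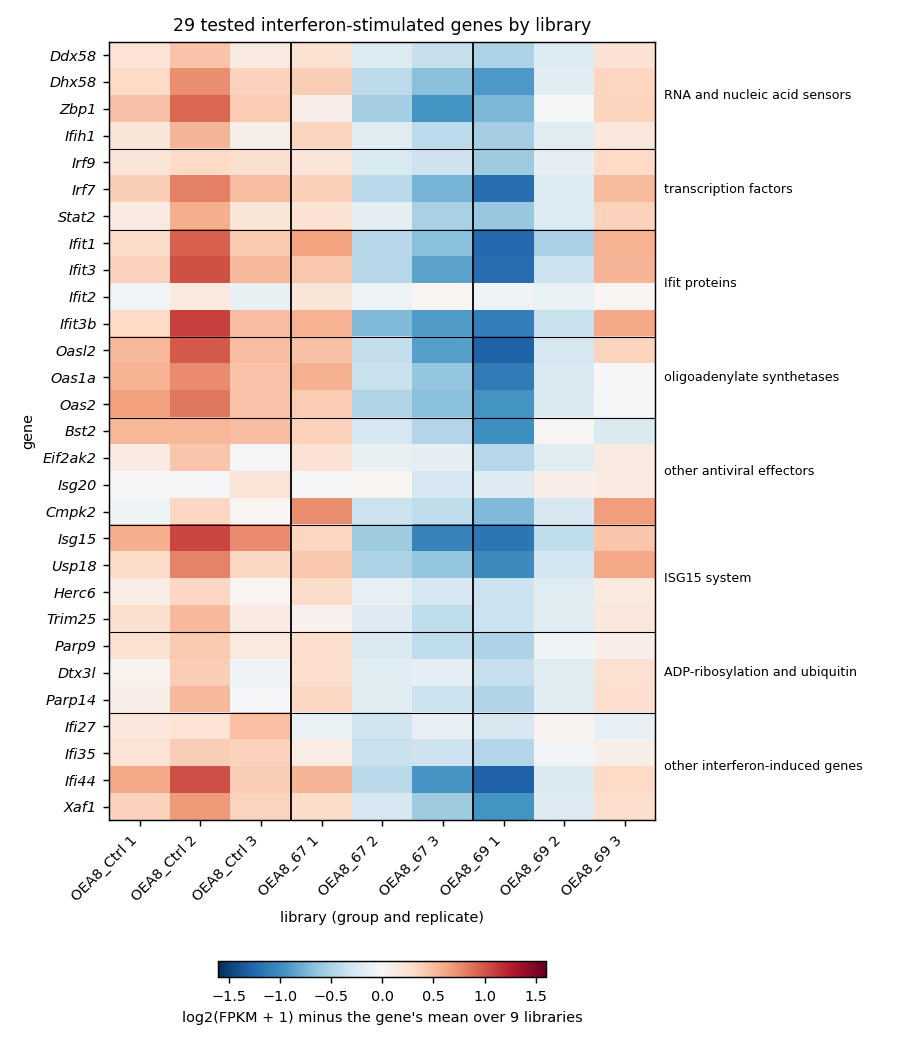
Heat map of the 29 tested interferon-stimulated genes (rows, grouped by role) in the 9 libraries (columns), coloured by log2(FPKM + 1) minus the gene's mean over all libraries. OEA8_Ctrl replicate 2 is the reddest column for most genes and OEA8_69 replicate 1 the bluest, while OEA8_67 replicate 1 and OEA8_69 replicate 3 are on the side of OEA8_Ctrl.

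On the log2(FPKM + 1) scale, the mean level of the 29 tested genes was 4.29, 4.62 and 4.29 in the OEA8_Ctrl libraries. It was 4.33, 3.69 and 3.49 in OEA8_67 and 3.26, 3.82 and 4.27 in OEA8_69. The mean over all 12012 tested genes stayed between 3.74 and 3.75 in every library. OEA8_67 replicate 1 and OEA8_69 replicate 3 were thus close to the OEA8_Ctrl libraries, and the other 4 mutant libraries lay below them.

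The order of the libraries was shared by nearly all genes. OEA8_Ctrl replicate 2 was the highest of the 9 libraries for 25 of the 29 genes, which held for 12% of all tested genes. OEA8_69 replicate 1 was the lowest for 24 of 29, against 7.53% of all tested genes. OEA8_67 replicate 1 exceeded both other replicates of its group for 28 of 29 genes (32.9% of all tested genes), with Isg20 as the exception. In OEA8_69 replicate 3 was above replicate 2 and replicate 2 above replicate 1 for 26 of 29 genes (14.5% of all tested genes), the exceptions being Ifit2, Ifi27 and Bst2.

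Against the control, OEA8_67 replicates 2 and 3 both lay below every OEA8_Ctrl library for 27 of 29 genes, a pattern of 15.4% of all tested genes. OEA8_69 replicates 1 and 2 did so for 27 of 29 genes as well, against 15.1%. Ifit2 and Isg20 were the exceptions in both. OEA8_67 replicate 1 reached at least the lowest OEA8_Ctrl library for 19 of 29 genes (65.5%), where 77.3% of all tested genes did. OEA8_69 replicate 3 did so for 18 of 29 (62.1%), against 76.2%. These 2 libraries thus reached the control level for most of the listed genes, at a share below that of all tested genes.

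The spread within groups was accordingly wide. The within-group SD of log2(FPKM + 1), pooled over the 3 groups, had a median of 0.394 over the 29 genes and of 0.0762 over all tested genes. Of the 29 genes 26 lay above the 95th percentile of all tested genes, and the smallest value, that of Ifit2, was at percentile 84.7. Ifit3b had the widest spread with 0.709. The median difference between the highest and the lowest library was 0.42 in OEA8_Ctrl, 0.83 in OEA8_67 and 0.98 in OEA8_69, where all tested genes had medians of 0.16, 0.11 and 0.11.

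**Figure D2:**
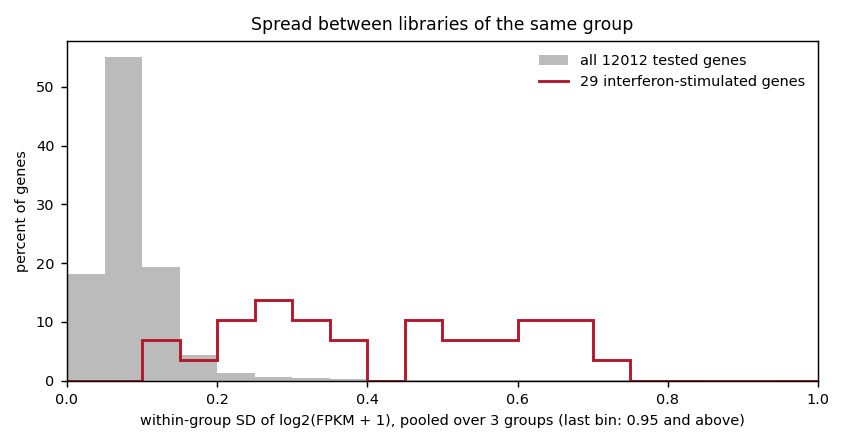
Distribution of the within-group SD of log2(FPKM + 1), pooled over the 3 groups, as percent of genes per bin for all 12012 tested genes (grey) and the 29 interferon-stimulated genes (red line). The grey distribution peaks between 0.05 and 0.1, and the 29 genes reach from above 0.1 to just above 0.7.

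The sensors of foreign nucleic acid are described first. Ddx58, which encodes the RNA sensor RIG-I, measured 35.2, 41.8 and 33.4 FPKM in OEA8_Ctrl, 35.8, 25.8 and 23.2 in OEA8_67, and 20.8, 25.8 and 35.5 in OEA8_69. Dhx58, which encodes LGP2, a regulator of RIG-I and MDA5, measured 12.2, 16.7 and 12.7 FPKM in OEA8_Ctrl. It measured 12.9, 6.92 and 5.69 in OEA8_67, and 4.61, 8.43 and 12.4 in OEA8_69. For both genes the groups overlapped, because replicate 1 of OEA8_67 and replicate 3 of OEA8_69 were within the control range or above its lowest library. Ddx58 differed by -0.39 ± 0.18 (log2 fold change ± SE) in OEA8_67 and by -0.44 ± 0.18 in OEA8_69, with limma adjusted p of 0.205 and 0.149. Dhx58 differed by -0.71 ± 0.30 and -0.72 ± 0.30 (adjusted p = 0.172 and 0.157). Ifih1 (MDA5), the remaining RNA helicase, ranged from 2.01 FPKM in OEA8_69 replicate 1 to 5.44 FPKM in OEA8_Ctrl replicate 2.

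Zbp1, a sensor of left-handed nucleic acids that can start necroptosis, did separate. It measured 5.76, 8.26 and 5.49 FPKM in OEA8_Ctrl, 4.24, 2.35 and 1.51 in OEA8_67, and 1.97, 3.8 and 5.25 in OEA8_69. Each mutant library was below each control library. Zbp1 fell by 1.07 ± 0.28 on the log2 scale in OEA8_67 (limma adjusted p = 0.0388). In OEA8_69 its difference of -0.73 ± 0.28 did not pass (adjusted p = 0.130). The call in OEA8_67 was lost in 6 of 9 fits that left out 1 library, namely any OEA8_Ctrl library, OEA8_67 replicate 2 or 3, or OEA8_69 replicate 2, where adjusted p reached 0.136. It was also lost under robust moderation and without the trend or the filter.

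Of the transcription factors, Irf9, the DNA-binding part of the complex that contains STAT2, measured 32.3, 35.2 and 33.5 FPKM in OEA8_Ctrl, a span of 1.09 times between the highest and lowest library. It measured 32.5, 23.4 and 22.0 in OEA8_67, and 18.5, 25.1 and 35.1 in OEA8_69. Irf7, which amplifies interferon production, varied more, with 28.5, 38.4 and 30.7 FPKM in OEA8_Ctrl, 28.3, 15.7 and 12.5 in OEA8_67, and 8.73, 18.4 and 31.0 in OEA8_69. Its 3 OEA8_69 libraries spanned 3.55 times. The adjusted p of Irf7 was 0.184 in OEA8_67 and 0.159 in OEA8_69, and that of Irf9 was 0.225 and 0.210. Stat2, whose protein binds IRF9, ranged from 10.6 to 25.4 FPKM and was lowest in OEA8_69 replicate 1.

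The Ifit proteins bind viral RNA or each other. Ifit1, which recognises RNA lacking cap methylation, measured 90.0, 142 and 97.7 FPKM in OEA8_Ctrl, 114, 53.5 and 45.5 in OEA8_67, and 30.3, 50.7 and 107 in OEA8_69. OEA8_67 replicate 1 and OEA8_69 replicate 3 thus exceeded replicates 1 and 3 of the control. Ifit3 measured 66.0, 104 and 74.0 FPKM in OEA8_Ctrl, 69.2, 37.0 and 27.8 in OEA8_67, and 21.4, 40.2 and 74.7 in OEA8_69. In OEA8_69 the highest library exceeded the lowest 3.54 times for Ifit1 and 3.48 times for Ifit3. The log2 fold changes of Ifit1 were -0.71 ± 0.40 in OEA8_67 and -0.96 ± 0.40 in OEA8_69 (adjusted p = 0.303 and 0.166), and those of Ifit3 -0.93 ± 0.39 and -0.97 ± 0.39 (adjusted p = 0.168 and 0.146).

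Ifit3b followed Ifit3 with 8.42 to 41.6 FPKM. Of the 50-base stretches of its longest coding transcript 44.5% also occur in Ifit3 transcripts, and 51.2% of those of Ifit3 occur in Ifit3b, so the 2 values are uncertain as separate measurements. Ifit2, the neighbour of Ifit3, did not follow them. It measured 22.1, 25.6 and 21.0 FPKM in OEA8_Ctrl, 26.2, 21.5 and 23.4 in OEA8_67, and 22.0, 21.2 and 23.4 in OEA8_69, so its 9 libraries stayed within a narrow band. Ifit2, Ifit3, Ifit3b and Ifit1 lie in this order on chromosome 19 between 34550550 and 34650009 (GRCm38), with gaps of 6.58, 18.5 and 27.5 kb. Whether position in the cluster bears on the library patterns was not tested. Ifit2 was singled out after its values had been seen.

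The oligoadenylate synthetases make the messenger that activates RNase L. Oasl2, a member of this family, measured 40.6, 55.5 and 39.3 FPKM in OEA8_Ctrl, 38.7, 21.0 and 14.6 in OEA8_67, and 10.7, 22.7 and 35.8 in OEA8_69. Every mutant library was below every control library, with differences of -0.93 ± 0.38 and -1.07 ± 0.38 that did not pass (adjusted p = 0.154 and 0.1004). Oas1a measured 20.7, 23.8 and 19.2 FPKM in OEA8_Ctrl, 20.8, 10.5 and 8.61 in OEA8_67, and 5.79, 11.5 and 13.6 in OEA8_69. All OEA8_69 libraries lay below the control range, and OEA8_67 replicate 1 lay within it. Oas2 measured 3.35, 3.96 and 2.80 FPKM in OEA8_Ctrl, 2.68, 0.98 and 0.74 in OEA8_67, and 0.43, 1.36 and 1.72 in OEA8_69, and all 6 mutant libraries were below the control.

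In OEA8_69, Oas1a fell by 1.05 ± 0.30 on the log2 scale (limma adjusted p = 0.0456) and Oas2 fell by 1.05 ± 0.27 (adjusted p = 0.0293). In OEA8_67 their differences of -0.72 ± 0.30 and -0.90 ± 0.27 did not pass (adjusted p = 0.158 and 0.0646). The call of Oas1a was lost without any 1 of the OEA8_Ctrl libraries, OEA8_67 replicate 2 or OEA8_69 replicate 1 or 2, with adjusted p up to 0.148. That of Oas2 was lost without OEA8_Ctrl replicate 1 or 2 or OEA8_69 replicate 1 or 2, with adjusted p up to 0.104. Both calls were also lost under robust moderation and without the filter, and that of Oas1a without the trend. Of the stretches of Oas1a 57.6% occur in transcripts of its paralog Oas1g, so its value is uncertain. Oas3 stayed between 0.09 and 0.57 FPKM and Oasl1 between 0.06 and 0.57 FPKM. Oas2, Oas3 and Oas1a are neighbours on chromosome 5, as are Oasl2 and Oasl1.

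Bst2 was the most abundant of the other antiviral effectors. It encodes tetherin, which holds budding virus particles at the cell surface. The control libraries were close together at 336, 338 and 329 FPKM, a span of 1.03 times. OEA8_67 measured 300.1, 193 and 168 FPKM and OEA8_69 117, 237 and 199 FPKM, so all 6 mutant libraries lay below the control. Bst2 fell by 0.91 ± 0.23 in OEA8_69 (limma adjusted p = 0.0287), and its difference of -0.64 ± 0.23 in OEA8_67 did not pass (adjusted p = 0.115). The call was lost without OEA8_Ctrl replicate 1 or 2 or OEA8_69 replicate 1, where adjusted p reached 0.0795, and under robust moderation or without the filter. Unlike most members, Bst2 was higher in replicate 2 than in replicate 3 of OEA8_69.

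Eif2ak2, which encodes the RNA-activated kinase PKR, measured 26.6, 33.4 and 24.0 FPKM in OEA8_Ctrl, 28.6, 22.4 and 21.7 in OEA8_67, and 17.4, 21.1 and 26.9 in OEA8_69. Its groups overlapped, with differences of -0.20 ± 0.15 and -0.35 ± 0.15 (adjusted p = 0.449 and 0.170). Isg20, an exonuclease that degrades RNA, ranged from 5.31 FPKM in OEA8_67 replicate 3 to 7.71 FPKM in OEA8_Ctrl replicate 3. Cmpk2, a mitochondrial nucleotide kinase, measured 1.44, 2.24 and 1.63 FPKM in OEA8_Ctrl, 3.30, 1.03 and 0.94 in OEA8_67, and 0.57, 1.15 and 3.07 in OEA8_69. Its neighbour Rsad2 (viperin), 12.7 kb away on chromosome 12, measured 0.24, 0.50 and 0.45 FPKM, then 1.39, 0.10 and 0.21 FPKM, then 0.05, 0.35 and 0.49 FPKM in the same groups. Both genes were highest of all 9 libraries in OEA8_67 replicate 1. The group means of Cmpk2 were 1.77 ± 0.418, 1.76 ± 1.34 and 1.597 ± 1.31 FPKM (SD, n = 3), so the spread in each mutant group was wider than any difference between the means. Cmpk2, Rsad2 and Isg20 were singled out after their values had been seen.

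**Figure D3:**
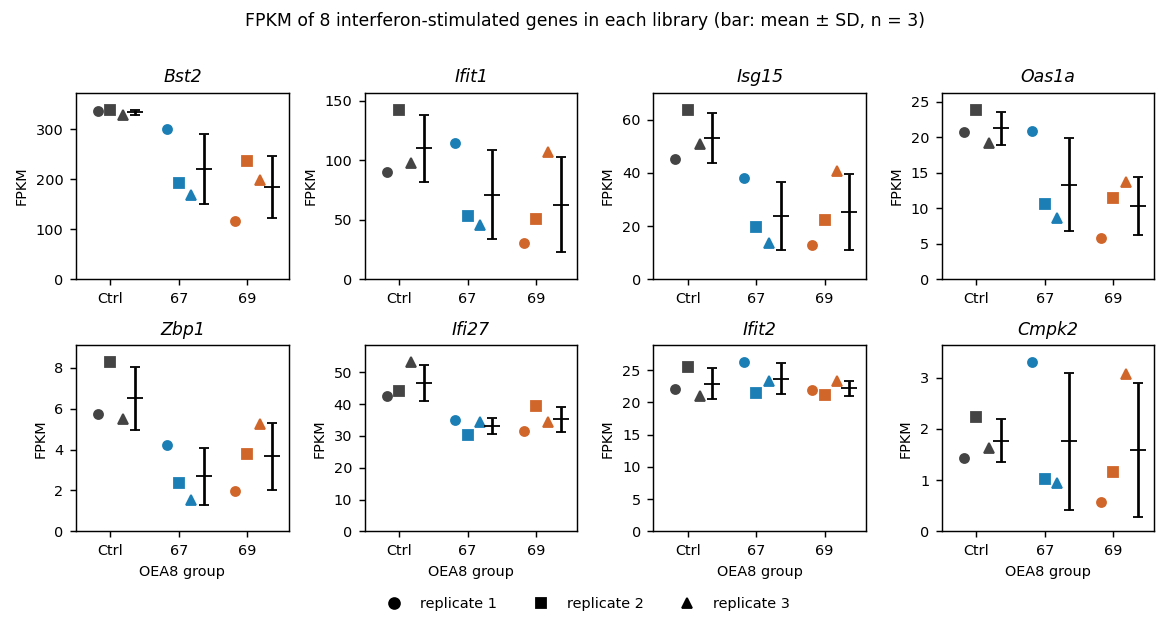
FPKM (y axis, from 0) of Bst2, Ifit1, Isg15, Oas1a, Zbp1, Ifi27, Ifit2 and Cmpk2 in each library of OEA8_Ctrl, OEA8_67 and OEA8_69, with symbols for the replicate and bars for mean ± SD of 3 libraries. The circles of OEA8_67 and the triangles of OEA8_69 sit high for Ifit1, Isg15 and Cmpk2, and Ifit2 is level.

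ISG15 is a ubiquitin-like protein that is conjugated to other proteins. Isg15 measured 45.05, 63.6 and 51.1 FPKM in OEA8_Ctrl, 38.02, 19.6 and 13.7 in OEA8_67, and 12.8, 22.1 and 40.8 in OEA8_69. No mutant library reached the control range. Its differences were the most negative of the 29 genes, at -1.24 ± 0.37 in OEA8_67 (adjusted p = 0.0657) and -1.18 ± 0.37 in OEA8_69 (adjusted p = 0.0710), and neither passed. Without OEA8_67 replicate 1, without OEA8_69 replicate 1 or without OEA8_69 replicate 3 Isg15 was called in OEA8_67, and in OEA8_69 it was called without OEA8_67 replicate 1 or OEA8_69 replicate 3. It was also called in OEA8_67 with only the compared groups in the model.

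Usp18, which removes ISG15 and restrains the interferon receptor, measured 23.8, 34.1 and 24.4 FPKM in OEA8_Ctrl, 26.4, 13.3 and 12.2 in OEA8_67, and 9.0, 15.5 and 29.7 in OEA8_69. OEA8_67 replicate 1 and OEA8_69 replicate 3 exceeded replicates 1 and 3 of the control, and adjusted p was 0.245 and 0.239. Herc6, in mice the main ligase for ISG15, ranged from 2.89 to 5.19 FPKM. Trim25, a ubiquitin ligase acting on RIG-I, ranged from 2.6 to 5.83 FPKM, and its 3 OEA8_67 libraries lay below the control (-0.49 ± 0.15, adjusted p = 0.0677). Of the stretches of Herc6 23.8% occur in transcripts of another annotated gene, so its value is uncertain.

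Among the ADP-ribosylation and ubiquitin genes, Parp9 measured 26.1, 29.7 and 24.5 FPKM in OEA8_Ctrl, 26.7, 18.5 and 16.2 in OEA8_67, and 15.2, 20.9 and 23.6 in OEA8_69. Its partner Dtx3l, a ubiquitin ligase, measured 8.49, 11.04 and 7.75 FPKM, then 10.2, 6.98 and 7.25 FPKM, then 6.10, 6.97 and 9.82 FPKM. Parp14 ranged from 5.06 to 11.2 FPKM. In OEA8_69 all Parp9 libraries were below the control (-0.43 ± 0.17, adjusted p = 0.145), and none of these 3 genes passed in any comparison. Parp14, Dtx3l and Parp9 are neighbours on chromosome 16, and Dtx3l and Parp9 overlap by 558 bases, so reads from the overlap could be counted for either.

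Ifi27, a small membrane protein gene, was the member called in both mutants. It measured 42.6, 44.2 and 53.1 FPKM in OEA8_Ctrl, 35.02, 30.2 and 34.3 in OEA8_67, and 31.6, 39.5 and 34.5 in OEA8_69. All mutant libraries lay below all control libraries, and inside the mutant groups the highest library was 1.16 and 1.25 times the lowest. The pooled within-group SD of Ifi27, 0.148, was small beside most other members but at percentile 92.1 of all tested genes. Ifi27 fell by 0.48 ± 0.09 in OEA8_67 (limma adjusted p = 0.00916) and fell by 0.40 ± 0.09 in OEA8_69 (adjusted p = 0.0191). The first call was lost without OEA8_67 replicate 2 (adjusted p = 0.0516), and the other without OEA8_69 replicate 1 or 3 (adjusted p up to 0.0822) and without the filter.

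Ifi35, which dimerises with the interferon-inducible protein NMI, measured 25.3, 28.7 and 28.2 FPKM in OEA8_Ctrl, 23.7, 16.8 and 17.0 in OEA8_67, and 15.3, 21.1 and 23.3 in OEA8_69. All mutant libraries were below the control, and the differences of -0.51 ± 0.14 and -0.46 ± 0.14 missed the threshold (adjusted p = 0.0530 and 0.0678). Ifi35 was called in OEA8_67 under median-of-ratios or quantile scaling, under a filter at 5 FPKM, with only the compared groups in the model, and without OEA8_67 replicate 1, OEA8_69 replicate 1 or OEA8_69 replicate 3. In OEA8_69 it was called without OEA8_67 replicate 1 or OEA8_69 replicate 3. Ifi44 ranged from 4.91 to 28.7 FPKM and Xaf1, a partner of the apoptosis inhibitor XIAP, from 6.42 to 22.1 FPKM. Both were lowest in OEA8_69 replicate 1 and highest in OEA8_Ctrl replicate 2.

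Counted over the list in OEA8_67, 2 of 29 genes were called and both were lower, Zbp1 and Ifi27 (6.9%). Among all tested genes 7.88% were called and 4.66% were called and lower, so the share of the list was near the background. The median log2 fold change of the 29 genes was -0.51, against 0.02 over all tested genes. Values below 0 were found for 28 of 29 genes and for 44.0% of all tested genes. Because the members moved together, such counts are not separate observations. An unadjusted p under 0.05 was found for 16 of 29 genes, and for 24.7% of all tested genes. All 3 OEA8_67 libraries lay below all OEA8_Ctrl libraries for 10 of 29 genes (34.5%), a pattern of 11.7% of all tested genes. The number called depended on single libraries. It was 10 without OEA8_67 replicate 1, when Ifi35, Trim25, Isg15, Oas2, Ifit3b, Zbp1, Oas1a, Ifi27, Parp9 and Bst2 were called, and 5.06% of all tested genes were called in that fit. It was 6 without OEA8_69 replicate 1 and 5 without OEA8_69 replicate 3, where 6.16% and 6.5% of all tested genes were called. It was 1 without any 1 of the OEA8_Ctrl libraries, OEA8_67 replicate 3 or OEA8_69 replicate 2, with 4.28% to 8.68% of all tested genes called. Without OEA8_67 replicate 2 limma called 0 members, against 3.85% of all tested genes, and 6 had an unadjusted p under 0.05.

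In OEA8_69, 4 of 29 genes were called and all were lower, namely Oas1a, Oas2, Bst2 and Ifi27 (13.8%). The background was 9.79% called and 5.24% called and lower. The median log2 fold change was -0.47, against 0.02 over all tested genes. Values below 0 were found for 29 of 29 genes and for 42.3% of all tested genes. An unadjusted p under 0.05 was found for 20 of 29 genes, against 25.1% of all tested genes. All OEA8_69 libraries lay below all OEA8_Ctrl libraries for 11 of 29 genes (37.9%), a pattern of 12% of all tested genes. The number called was 14 without OEA8_69 replicate 3, where the median was -0.72 and 6.71% of all tested genes were called. These were Usp18, Ifit3, Ifi35, Trim25, Isg15, Ddx58, Irf7, Oasl2, Oas2, Xaf1, Irf9, Ifit1, Oas1a and Bst2, but not Ifi27. It was 1 without OEA8_Ctrl replicate 1 or 2 (6.59% and 8.04% of all tested genes) and 2 without OEA8_69 replicate 2 (6.65%). Without OEA8_69 replicate 1 limma called 0 members, against 6.25% of all tested genes, and 6 had an unadjusted p under 0.05. The comparisons of the 2 mutants share the OEA8_Ctrl libraries, so their values are given side by side and not as independent results.

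**Figure D4:**
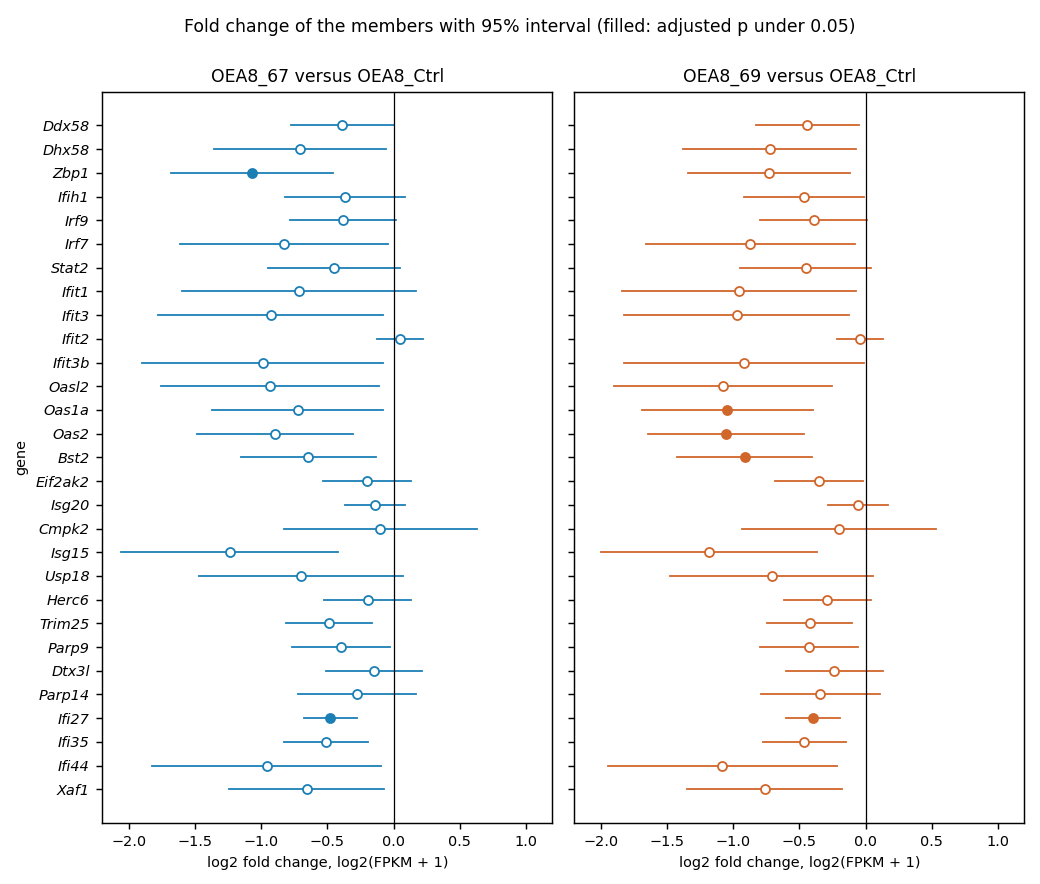
Log2 fold change of log2(FPKM + 1) with its 95% interval (x axis) for each of the 29 tested genes (y axis, grouped by role) in OEA8_67 and OEA8_69 against OEA8_Ctrl, filled where the adjusted p was under 0.05. Nearly all points lie left of 0, most intervals are wide, and 2 points on the left and 4 on the right are filled.

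The mutants themselves were not separated by these genes. Between OEA8_69 and OEA8_67 limma called 0 of 29 genes, where 3.16% of all tested genes were called, and 0 of 29 had an unadjusted p under 0.05. The median log2 fold change was -0.05, against -0.00 over all tested genes, and values ranged from -0.32 to 0.34. The intervals were wide. Isg15 differed by 0.06 (95% interval -0.76 to 0.88) and Bst2 by -0.27 (-0.78 to 0.24), so differences of that size between the mutants were not detectable here. Leaving out OEA8_67 replicate 1 or OEA8_69 replicate 1 turned the median positive (0.17 and 0.19), and leaving out OEA8_69 replicate 3 moved it to -0.31. Isg15 turned negative without OEA8_67 replicate 2 or 3 or OEA8_69 replicate 3, and Bst2 turned positive without OEA8_69 replicate 1.

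Over the 3 groups together the moderated F test called Oas2 (adjusted p = 0.0421) and Ifi27 (adjusted p = 0.0117), 2 of 29 genes (6.9%) where 12.1% of all tested genes were called. The number was 9 without OEA8_67 replicate 1 and 7 without OEA8_69 replicate 3, where 8.88% and 8.01% of all tested genes were called. It was 1 without any 1 of the OEA8_Ctrl libraries or OEA8_67 replicate 2 or 3, where the share of all tested genes ran from 7.73% to 18%.

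**Figure D5:**
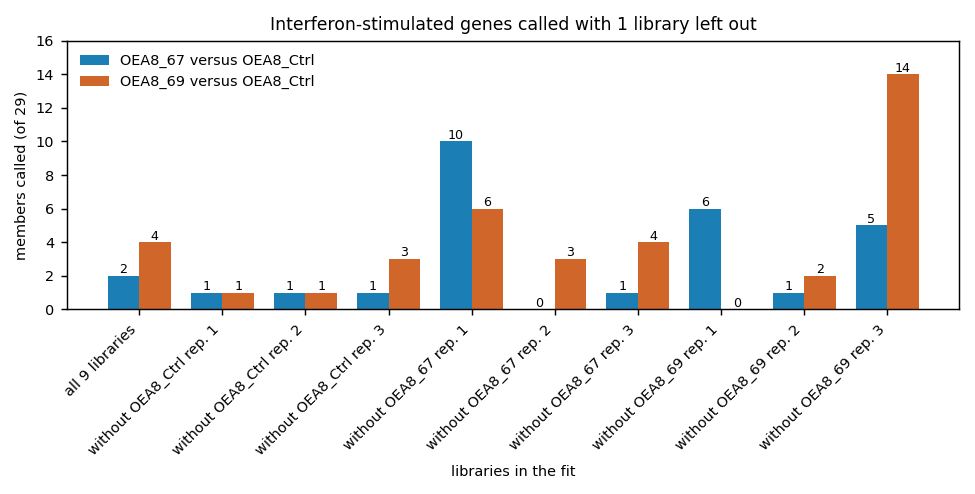
Number of the 29 genes called (y axis, from 0) in OEA8_67 (blue) and OEA8_69 (orange) against OEA8_Ctrl with all 9 libraries and with each library left out in turn (x axis). The bars rise to 10 without OEA8_67 replicate 1 and to 14 without OEA8_69 replicate 3, and drop to 0 without OEA8_67 replicate 2 or OEA8_69 replicate 1.

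The genes resembled each other closely across the libraries. Over the 9 libraries 23 of 29 had a Pearson r of at least 0.9 with the mean of the other members, and the lowest were Ifit2 (0.456), Isg20 (0.620) and Ifi27 (0.630). Of 8578 other genes that averaged 5 FPKM or more, 47 reached 0.9 with the members' mean (0.548%). Among the 10 most alike were Znfx1, Rtp4, Irgm1, Ifi203, Tgtp1, Gbp3, Iigp1, Trim30a and Mndal, with r from 0.983 to 0.996. These r values are descriptions over 9 points that share the libraries. Rtp4 measured 70.5, 99.5 and 81.7 FPKM in OEA8_Ctrl, 83.6, 43.5 and 36.7 in OEA8_67, and 29.2, 54.9 and 74.2 in OEA8_69, the order of libraries seen in the members.

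Interferon and receptor genes, which act upstream, were also measured. Of 20 listed interferon genes 7 were in the table, 4 of them were listed at 0 in every library, and no single value exceeded 0.10 FPKM. Ifnb1 was above 0 in OEA8_67 replicate 1 alone, at 0.07 FPKM. Ifnar2, a chain of the type I receptor, measured 59.8, 56.2 and 64.9 FPKM in OEA8_Ctrl, 59.7, 59.9 and 59.0 in OEA8_67, and 63.1, 65.8 and 64.3 in OEA8_69. Of 8 tested receptor and JAK kinase genes limma called 0 in each comparison, with 1 at an unadjusted p under 0.05 in each. Their mean level correlated with that of the members at r of 0.13. The same r was 0.91 for the sensing adaptors and kinases, 0.79 for the further STAT and IRF factors and 0.04 for the negative regulators. Of 13 tested sensing adaptors and kinases Sting1 and Tlr4 were lower in OEA8_67, and Tlr4 and Ikbke were lower in OEA8_69. Of 6 further STAT and IRF factors Irf5 was higher in OEA8_69 by 0.28 (limma adjusted p = 0.0402). Of 6 tested negative regulators Socs3 fell by 0.16 in OEA8_67 (limma adjusted p = 0.0350). It was higher in OEA8_69 than in OEA8_67 by 0.26 (adjusted p = 0.00560). Among all tested genes 7.88% were called in OEA8_67, 9.79% in OEA8_69 and 3.16% between the mutants. With lists this short, 1 or 2 calls are not read as a result about the list.

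Further interferon-inducible genes, kept on a separate list, were lower as well where they passed. Of 37 tested, 9 were lower in OEA8_67 and 10 in OEA8_69, with 0 higher and medians of -0.29 and -0.33. Among all tested genes 4.66% and 5.24% were called lower. Calls of genes outside the member list were not recomputed under other settings or with a library left out. Phf11d, which had the most negative of these calls in both mutants, measured 4.09, 6.45 and 4.24 FPKM in OEA8_Ctrl, 2.67, 1.5 and 1.27 in OEA8_67, and 0.70, 1.68 and 2.4 in OEA8_69. It fell by 1.08 and 1.23 (limma adjusted p = 0.0188 and 0.00742), and its paralog Phf11b fell by 0.99 and 0.81 (adjusted p = 0.00122 and 0.00336). Both were singled out after their values had been seen. Ly6e, a membrane protein gene, measured 331, 324 and 347 FPKM in OEA8_Ctrl, 294, 253 and 234 in OEA8_67, and 224, 272 and 269 in OEA8_69, and fell by 0.37 and 0.39 (limma adjusted p = 0.0249 and 0.0133). Lgals3bp, a secreted glycoprotein gene, measured 221, 208 and 206 FPKM in OEA8_Ctrl, 186, 129.7 and 113 in OEA8_67, and 73.2, 129.0 and 124 in OEA8_69, and fell by 0.999 in OEA8_69 (adjusted p = 0.00834). Of 13 interferon gamma-associated genes limma called 0 in each comparison, with medians of -0.45 in OEA8_67 and -0.47 in OEA8_69, and 5 and 8 had an unadjusted p under 0.05. Of 15 class I antigen presentation genes B2m, the light chain of the class I complex, was called lower in OEA8_69, by 0.29 (adjusted p = 0.0385). The Ifitm genes, whose best-known products restrict virus entry, were divided between the mutants. Of 7 limma called Ifitm1, Ifitm5, Ifitm6 and Ifitm10 lower in OEA8_67 (median -0.35) and 0 in OEA8_69 (median 0.08), where 2 had an unadjusted p under 0.05. Between the mutants Ifitm1, Ifitm2 and Ifitm6 were higher in OEA8_69 than in OEA8_67, Ifitm1 by 0.80 (limma adjusted p = 0.00104).

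Markers of other cell types were compared with the pattern of the libraries. Of 13 myeloid markers 3 averaged at least 1 FPKM, and their summed level was 38.9 to 42.0 FPKM in OEA8_Ctrl, 33.9 to 35.8 FPKM in OEA8_67 and 33.8 to 35.7 FPKM in OEA8_69. Of these markers Lyz2 was called lower in both mutants and Cd14 in OEA8_67. Of 7 lymphoid and 6 plasmacytoid dendritic markers 0 reached 1 FPKM. The summed endothelial markers were 62.7 to 63.5 FPKM in OEA8_Ctrl, 9.59 to 11.5 FPKM in OEA8_67 and 6.45 to 7.96 FPKM in OEA8_69. Of these 10 markers 3 averaged at least 1 FPKM, and limma called Cdh5, Flt1, Erg and Sox18 lower in both mutants. In replicates 1, 2 and 3 of OEA8_67 the endothelial sums were 9.59, 11.5 and 11.1 FPKM, and in those of OEA8_69 they were 6.45, 7.15 and 7.96 FPKM. In OEA8_69 they had the same order as the sums of the interferon-stimulated genes, and in OEA8_67 replicate 1, the highest in these genes, was the lowest. The hematopoietic stem and progenitor markers summed to 333 to 352 FPKM in OEA8_Ctrl, 217 to 229 FPKM in OEA8_67 and 229 to 238 FPKM in OEA8_69. Of the 7 tested, Cd34, Ly6a and Procr were called lower and Gata2 higher in both mutants, and in OEA8_69 Mecom was also lower and Hlf higher. The fibroblast markers summed to 5728 to 5779 FPKM in OEA8_Ctrl, 5414 to 5514 FPKM in OEA8_67 and 5743 to 5872 FPKM in OEA8_69. Of these 12, Pdgfra, Dcn and Postn were called lower and Fbln2 higher in both mutants, and Lum and Thy1 were lower in OEA8_67. In the same fits 7.88% of all tested genes were called in OEA8_67 and 9.79% in OEA8_69. The part of these markers in the group differences of the interferon-stimulated genes was not tested.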

How the data were processed

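TRIzol-extracted total RNA was sequenced on a BGISEQ-500. In the submitters' processing notes the aligners are HISAT2 2.0.4 and Bowtie2 2.2.5 with build mm10, and the study's methods add RSEM, version not stated there. The authors deposited FPKM for every gene and library, with 2 decimals. They keep no read depth, and a rise of abundant genes lowers the others.

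The 9 library columns were grouped by the sample labels. Values were transformed to log2(FPKM + 1), so changes of low genes are understated. The 12012 genes averaging 0.5 FPKM or more entered a single limma 3.58.1 model (R 4.3.3) of the 3 groups, with empirical Bayes moderation and a trend. The Benjamini-Hochberg adjustment ran over all tested genes, and an adjusted p under 0.05 was called. The procedure was tested on simulated data. Values in every library were given for the 2 most abundant members of each role and for called members. The rule for other lists allowed the 2 most abundant genes and called genes by smallest adjusted p; some of these are named, few with values in every library. Genes most alike came from those averaging 5 FPKM or more, predicted names left out. The values of 1 gene among them are not reported here. The members and lists were chosen with earlier results of these data known. Gene positions and promoter windows are from RefSeq (GRCm38.p6), and shared 50-base stretches from GENCODE transcripts. Alternatives were pseudocounts of 0.1 and 0.5, other filters, scalings and moderation, the replicate number as a block, only the compared groups, and each library left out. The authors' columns of group means were not used.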

Additional observations from a re-analysis of the deposited data

How the results depend on the processing

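With 3 libraries a group and wide spreads, calls of single interferon-stimulated genes depended on the settings, and why was not tested. The number of members called in OEA8_67 against OEA8_Ctrl (2 of 29) was 1 without the filter, under robust moderation, without the trend and with the replicate number as a block, was 4 with only the compared groups, and lay between 0 and 10 with 1 library left out. The number in OEA8_69 (4) was 0 without the filter (32 members in a larger set of genes, 12 at an unadjusted p under 0.05), 1 under robust moderation, 1 with the block, which left only Ifi27 called in either mutant, and 0 to 14 with 1 library left out. The F test count (2) was 1 with a pseudocount of 0.1 or 0.5, without the filter, under robust moderation, without the trend and with the block, was 4 under median-of-ratios scaling, and lay between 1 and 9 with 1 library left out. Between the mutants it was 0 in all 19 alternatives. Over all genes the calls in OEA8_67 (946) were 463 to 1043 with 1 library left out, those in OEA8_69 (1176) were 751 to 1787, those of the F test (1451) were 915 to 2164, and those between the mutants (379) were 123 to 1037, 210 without the filter, 242 with the block and 977 with only the compared groups. Same-numbered libraries had deviations from their group means correlated at -0.248 to 0.149 over 9 pairs, and differently numbered libraries at -0.195 to 0.280. Deviations from a mean of 3 libraries constrain each other, so these values cannot show whether the numbers pair the libraries. The median log2 fold change of the members stayed between -0.66 and -0.45 in OEA8_67 and between -0.72 and -0.32 in OEA8_69 under all alternatives, and the library patterns kept within 1 gene of the counts given under the scalings and the other pseudocount tried.

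Among the values recomputed, directions that turned did so with 1 library left out. In OEA8_67 the log2 fold change then ranged from -0.0223 to 0.13 for Ifit2 and from -0.47 to 0.10 for Cmpk2. In OEA8_69 it ranged from -0.10 to 0.0395 for Ifit2, from -0.58 to 0.11 for Cmpk2 and from -0.11 to 0.0513 for Isg20. Between the mutants, where single values were recomputed for Ifit1, Isg15, Bst2 and Zbp1 only and the members' median itself ran from -0.31 to 0.19, it ranged from -0.72 to 0.17 for Ifit1, from -0.35 to 0.45 for Isg15 and from -0.48 to 0.0241 for Bst2. Of 1165 recomputed single-gene values 1080 kept direction and side of the threshold, but most belong to genes not called in the main fit. In 37 a call was lost, and all 37 fall on the few called members. A call appeared in 33 and the direction turned in 15. The read depth is unknown, so counting error of the low genes Oas3, Oasl1 and Rsad2 cannot be given.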
